A study of Mus musculus with 14 samples.

Results

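The 39 genes described here carry glucose into the cell, break it down to pyruvate and lactate, or belong to the transcriptional response to low oxygen. They were picked by gene name from the 22048 protein-coding genes of a mouse count table, and all 39 were found and passed the filter on low counts that left 12343 genes. Of these, 24 encode glucose transporters, glycolytic enzymes and their regulators, and proteins that handle pyruvate and lactate, and 15 belong to the hypoxia response. The libraries came from CD4+ T cells of C57BL/6 mice that carry a yellow fluorescent protein reporter of interferon-gamma, with spleen and peripheral lymph nodes as the source. Naive cells (n = 3) were sorted as CD4+ CD44- CD62L+ and sequenced with no culture. For the other 4 groups, CD4+ T cells were enriched but not sorted for naive cells, and were cultured for 4 days towards the T helper 1 type with plate-bound anti-CD3 and anti-CD28, each at 1 µg/ml, with interleukin 2 and interleukin 12 at 10 ng/ml each, and anti-IL4 at 10 µg/ml. Each culture also held 1 µM of SGC0946, an inhibitor of the histone H3 lysine methyltransferase DOT1L, or 1 µM of SGC0649, its inactive control compound. After culture, CD4+ cells were sorted by the reporter, which gave YFP+ cells with SGC0649 (n = 3), YFP- cells with SGC0649 (n = 2), YFP+ cells with SGC0946 (n = 3) and YFP- cells with SGC0946 (n = 3). Every cultured library therefore carries the reporter, the 4 days of stimulation and a compound, and no culture without a compound was analysed here. The study calls the libraries of a group biological replicates and does not say whether they came from separate animals or cultures, so the p-values measure the spread between these libraries. The ages and the number of mice are not stated in the labels.

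Glycolysis splits glucose into pyruvate, and cells that divide fast often reduce that pyruvate to lactate and export it even when oxygen is present. T cells switch to this mode on activation, under the control of Myc, mTORC1 and the hypoxia-inducible factor HIF-1. HIF-1 is a pair of proteins whose alpha subunit, encoded by Hif1a, is marked for destruction by prolyl hydroxylases of the EGLN family when oxygen is plentiful. When the subunit lasts, HIF-1 binds DNA at a short core, written ACGTG or GCGTG, and switches on glycolytic genes together with genes for angiogenesis, mitophagy and collagen hydroxylation. DOT1L methylates a lysine in the core of histone H3 over transcribed genes.

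The libraries held between 14486577 and 31614057 counts, of which 1.37 to 1.80% were mitochondrial. The CD4 T cell markers were present in all 14 libraries, with a summed level of 2490 to 4175 CPM (counts scaled to a library of 1e+06). Of the markers of other cells, the summed level was at most 3.20 CPM for 7 B cell genes, 9.24 CPM for 8 myeloid genes (9 rows of the table) and 1.59 CPM for 6 erythroid genes, and 4.76 to 19.7 CPM for 2 CD8 T cell genes. The 5 NK cell genes summed to 4.73 to 7.13 CPM in naive and 19.03 to 165 CPM in cultured libraries. Most of this was Eomes, a transcription factor that T cells can also express, and the other 4 genes together reached at most 2.44 CPM in any library. Unmapped reads made up 3.14 to 4.62% of the reads in the YFP- libraries, 6.44 to 8.35% in YFP+ libraries with SGC0649 and 7.40 to 8.66% in naive libraries. Library 2 of the YFP+ cells with SGC0946 stood apart at 3.61%, beside 7.58% and 8.12% in its group. That library also had the highest level of its group for 33 of the 39 genes, against 38.4% of all genes tested, and results for its group are given with and without it where that matters. In the YFP- cells with SGC0946, library 3, the shallowest, was the lowest of its group for 27 of the 39 genes, against 40.8% of all genes tested. In the YFP+ cells with SGC0649, library 1 was the highest for 29 of the 39 genes, against 35.9% of all genes tested. Library 3 of that group was the lowest for 28, against 36.8% of all genes tested.

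The promoters of 36 of the 39 genes were found in the RefSeq promoter table (build GRCm38.p6), and the 250 bases before the annotated start were searched for the HIF core, ACGTG or GCGTG, on either strand. Slc2a3, Bnip3l and Ndrg1 were not matched, Ero1l was matched as Ero1a, and the first listed window was used for genes with several. A core was present in 29 of the 36 promoters (80.6%), against 57.3% of the 9378 other tested genes and 38.6% of all 27025 promoters. The palindrome CACGTG, the E-box read by Myc and its partners, overlaps ACGTG and was found in 5 of the 36 promoters (13.9%), against 8.46% of the other tested genes and 6.05% of all promoters. The members' promoters were rich in G and C, with a median of 64% against 60% in the other tested genes and 52% overall. No binding data were analysed here, so a match describes the letters only. The promoters of 5 genes are shown because these mark the extremes of the results. Hk2 changed most on culture, and Ldha had the highest level per kilobase of annotated exon. P4ha2 rose most with the inhibitor, Slc16a1 alone fell with it, and Pgk1 is a classical HIF-1 target. Each is written 5′ to 3′ on the strand of its gene, with the cores in capitals. The windows are chr6:82774455-82774704 (minus strand) for Hk2, chrX:106186850-106187099 for Pgk1, chr7:46845554-46845803 for Ldha, chr3:104638414-104638663 for Slc16a1 and chr11:54100674-54100923 for P4ha2, the last 4 on the plus strand.
Hk2: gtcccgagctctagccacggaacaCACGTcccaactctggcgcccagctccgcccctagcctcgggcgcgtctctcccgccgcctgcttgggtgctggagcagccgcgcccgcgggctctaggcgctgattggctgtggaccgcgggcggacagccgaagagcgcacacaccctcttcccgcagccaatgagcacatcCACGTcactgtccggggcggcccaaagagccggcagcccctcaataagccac
Pgk1: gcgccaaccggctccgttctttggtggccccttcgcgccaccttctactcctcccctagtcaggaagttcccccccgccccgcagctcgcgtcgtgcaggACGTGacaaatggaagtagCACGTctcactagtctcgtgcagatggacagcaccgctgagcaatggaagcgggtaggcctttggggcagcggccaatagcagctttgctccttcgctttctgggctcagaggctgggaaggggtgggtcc
Ldha: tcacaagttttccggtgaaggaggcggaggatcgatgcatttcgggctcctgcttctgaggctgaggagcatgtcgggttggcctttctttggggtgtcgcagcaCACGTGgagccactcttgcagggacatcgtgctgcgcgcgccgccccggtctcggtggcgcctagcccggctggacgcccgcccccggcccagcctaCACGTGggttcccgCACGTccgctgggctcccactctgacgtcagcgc
Slc16a1: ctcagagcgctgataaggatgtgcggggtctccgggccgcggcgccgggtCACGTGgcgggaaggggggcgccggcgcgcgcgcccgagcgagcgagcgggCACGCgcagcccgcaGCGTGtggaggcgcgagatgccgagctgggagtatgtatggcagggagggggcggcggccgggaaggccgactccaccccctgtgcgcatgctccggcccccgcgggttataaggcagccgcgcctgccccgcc
P4ha2: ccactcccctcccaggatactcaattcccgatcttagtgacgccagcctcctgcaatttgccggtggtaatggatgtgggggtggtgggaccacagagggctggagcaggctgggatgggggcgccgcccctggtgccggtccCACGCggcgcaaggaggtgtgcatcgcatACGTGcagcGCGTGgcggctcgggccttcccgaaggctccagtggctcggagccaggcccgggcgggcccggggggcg
The Ldha window held 5 ACGTG matches over both strands, 4 of which come from its 2 CACGTG palindromes. The Slc16a1 window held 1 CACGTG, the Hk2 and Pgk1 windows held 2 ACGTG matches each, and the P4ha2 window held 1 ACGTG and 2 GCGTG.

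Levels are given as CPM scaled by TMM factors, in the order of the replicate numbers. The 39 genes together took 0.386 to 0.389% of all counts in naive libraries and 1.32 to 1.33% in YFP- cells with SGC0649. They took 1.44 to 1.64% in YFP+ cells with SGC0649, 1.42 to 1.69% in YFP- cells with SGC0946 and 1.93 to 2.09% in YFP+ cells with SGC0946. The YFP+ cells with the inhibitor lay above every other library, and the naive cells below. In bulk RNA, a larger share of cells that use a gene and more RNA of that gene per cell cannot be told apart. Per kilobase of exon, Ldha, which turns pyruvate into lactate, had the highest level of the 39 in every group, from 141 ± 3.01 CPM per kb (SD, n = 3) in naive cells to 923 ± 16.01 (SD, n = 3) in YFP+ cells with SGC0946. Pkm, the pyruvate kinase of the last step, came next in all 4 cultured groups. Exon length here joins all annotated exons, 3310 bases for Ldha and 5001 for Pkm, beside longest transcripts of 1815 and 2432. The ranks depend on that choice of length and were not computed with another. Several of these genes share sequence with other genes: 82.5% of the 50-base stretches of Gapdh transcripts, 72.2% of Eno1 (mostly shared with Eno1b), 68% of Pgk1, 62.4% of Bnip3, 41.5% of Pgam1, 34.4% of Pkm, 27% of Ldhb, 25.3% of Gpi1 and 23.4% of Bnip3l recur in another gene. For Higd1a 36.6% recur in other genes, and 29% in an antisense gene alone. Multi-mapped reads were not counted, so the levels of these genes are uncertain. Whether the antisense part of Higd1a left reads uncounted was not examined.

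**Figure D1:**
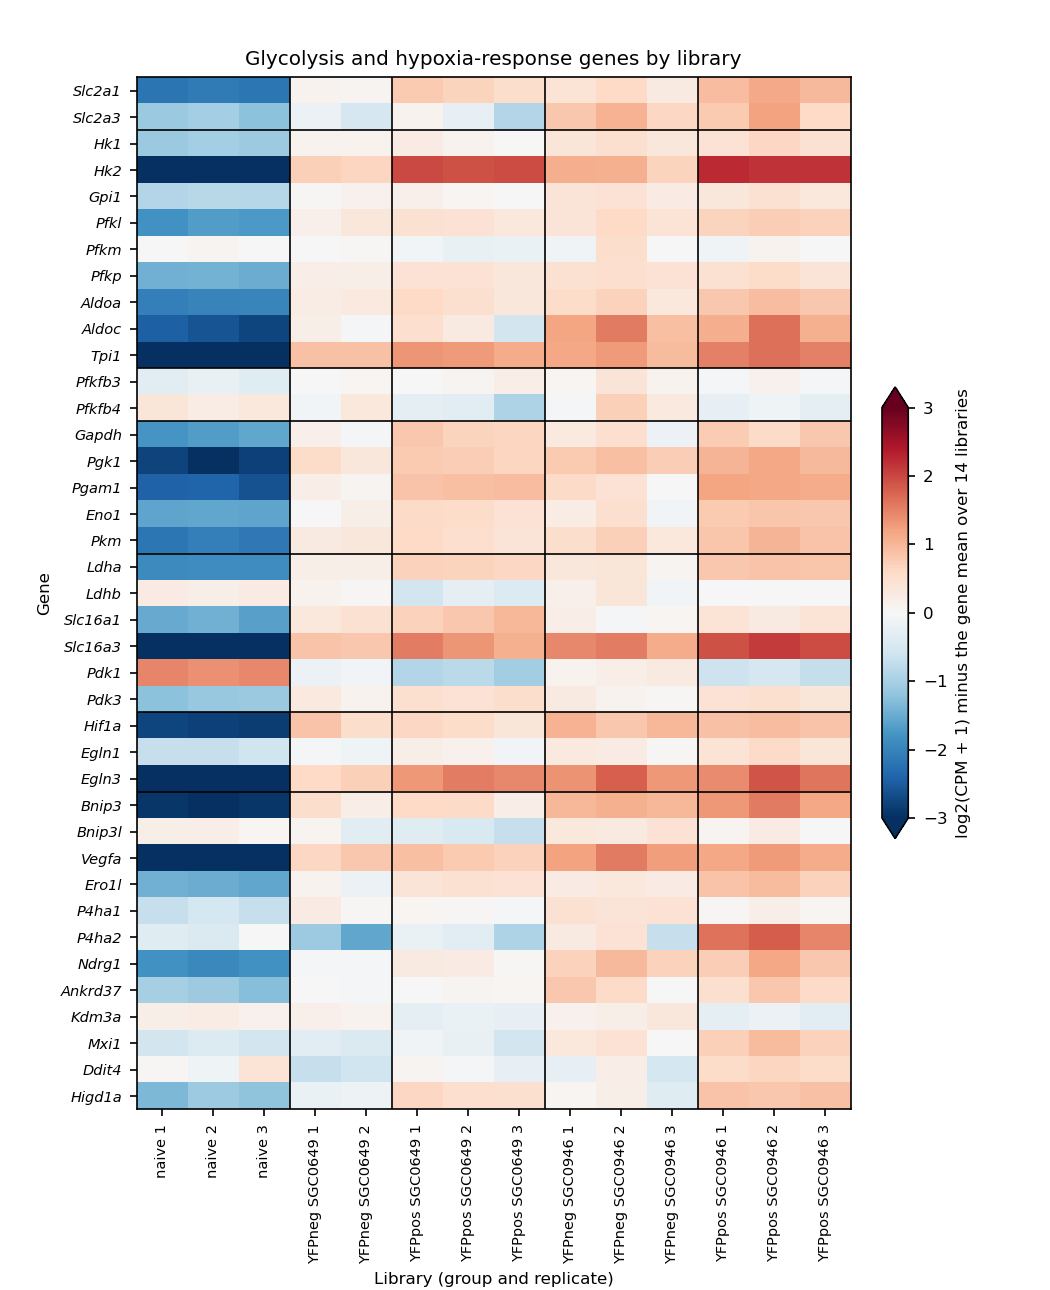
Level of each of the 39 genes (rows, grouped by role) in each of the 14 libraries (columns), as log2(CPM + 1) minus the mean of the gene over all libraries. The colours end at -3 and 3, naive libraries are low for most rows, Pdk1 is the clearest exception, and the inhibitor columns are redder than the control columns for most rows.

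The first comparison asked how cultured cells with the control compound differ from uncultured naive cells. Most of the pathway was higher after culture, from the glucose transporter to the lactate exporter, and Hk2, Slc16a3, Egln3 and Vegfa, among the genes with the largest changes, were under 3 CPM in every naive library. In YFP+ cells with SGC0649, 30 of the 39 genes were higher and 5 lower than in naive cells, where 42.6% of all tested genes were higher and 37.3% lower. In YFP- cells with SGC0649, 30 were higher and 3 lower, against 36.4% and 32.6% of all tested genes. The 30 that were higher were the same genes in both sorts, which share the naive libraries. The share of all tested genes that were higher in both sorts was not computed. Calls are by edgeR's quasi-likelihood test with a Benjamini-Hochberg adjusted p under 0.05 over all tested genes. The median log2 fold change of the 39 genes was 1.95 in YFP+ and 1.65 in YFP- cells, beside 0.09 and 0.03 over all tested genes. The cultured and naive groups differ in the starting population, the culture, the compound and the sort at once, and these cannot be told apart.

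Glucose enters T cells through the transporters GLUT1 and GLUT3, encoded by Slc2a1 and Slc2a3. Slc2a1 had 35.3, 37.3 and 35.95 CPM in naive cells, 178 and 176 CPM in YFP- and 284, 263 and 237 CPM in YFP+ cells with SGC0649. The 3 groups did not overlap, and Slc2a1 was 7.22-fold higher in YFP+ than in naive cells (log2 fold change 2.85 ± 0.09 SE). Slc2a3 had 83.8, 89.3 and 76.6 CPM in naive cells and 196, 154 and 98.6 CPM in YFP+ cells with SGC0649. It was higher by 0.84 ± 0.20 (SE) on the log2 scale, with a wide spread among the YFP+ libraries, in which library 3 was the lowest. In YFP- cells the same rise, 0.80 ± 0.22 (SE), lost its call without library 1 of that group (adjusted p = 0.063, edgeR quasi-likelihood).

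The balance of hexokinase isoforms, the first enzymes of the pathway, shifted with culture. Hk2 (ENSMUSG00000000628, chromosome 6, 82725025 to 82774454, GRCm38) encodes the inducible hexokinase that docks on mitochondria. It had 0.240, 0.810 and 0.567 CPM in naive cells, which is 4, 13 and 10 counts, beside 114 and 109 CPM in YFP- and 278, 262 and 270.5 CPM in YFP+ cells with SGC0649. Its log2 fold change against naive cells was 8.96 ± 0.17 (SE) in YFP+ cells and 7.69 ± 0.19 (SE) in YFP- cells, with adjusted p = 1.7e-17 and 5e-16 (edgeR quasi-likelihood), the largest change among the 39 genes. Hk1, the constitutive hexokinase, had 168, 179.9 and 171 CPM in naive cells and 435, 395 and 361 CPM in YFP+ cells, a log2 change of 1.20 ± 0.07 (SE).

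The middle of the pathway was higher in both sorts, with 1 exception. Tpi1, the triose phosphate isomerase (ENSMUSG00000023456, chromosome 6, 124810586 to 124814296), had 22.4, 22.5 and 24.4 CPM in naive cells and 1391, 1347 and 1192 CPM in YFP+ cells with SGC0649. The gap was 56.7-fold, with no overlap, and made Tpi1 the most changed of the glycolytic enzymes after Hk2. Of the phosphofructokinases, which catalyse the committed step, Pfkl was higher by 2.16 ± 0.07 (SE) and Pfkp by 1.85 ± 0.05 (SE) on the log2 scale in YFP+ cells. The muscle form Pfkm was not called in any of the comparisons, with 29.8, 31.96 and 29.9 CPM in naive cells and 28.8, 25.9 and 26.2 CPM in YFP+ cells with SGC0649. Gpi1, which isomerises glucose 6-phosphate, was higher by 0.93 ± 0.06 (SE). The aldolases Aldoa and Aldoc were higher by 2.50 ± 0.09 and 3.27 ± 0.31 (SE), though Aldoc, at 2.16, 1.87 and 1.59 CPM in naive cells and 23.4, 19.98 and 10.9 CPM in YFP+ cells, was the less expressed per length.

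The enzymes of the payoff stage were all higher in both sorts. Pgk1, the first ATP-yielding kinase, had 12.8, 10.5 and 12.6 CPM in naive cells and 161, 158 and 147 CPM in YFP+ cells with SGC0649, a log2 change of 3.70 ± 0.09 (SE). Pgam1, the phosphoglycerate mutase, changed by 3.52 ± 0.13 (SE), Pkm by 2.61 ± 0.09 (SE), Gapdh by 2.45 ± 0.14 (SE) and Eno1, the enolase, by 2.10 ± 0.10 (SE). Gapdh is often used as a reference gene, and here it differed 5.46-fold between YFP+ and naive cells. The bifunctional enzymes that set the level of fructose 2,6-bisphosphate did not move together. Pfkfb3, the form with high kinase activity, was higher by 0.40 ± 0.09 (SE), while Pfkfb4 was lower in YFP+ cells, with 15.9, 14.4 and 15.4 CPM in naive cells and 9.85, 9.56 and 5.88 CPM in YFP+ cells with SGC0649.

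At the end of the pathway, genes for lactate production and export were higher. Pdk1 and Pdk3, 2 of the kinases that restrain mitochondrial pyruvate use, went opposite ways. Ldha had 455, 473 and 471 CPM in naive cells and 2773, 2747 and 2647 CPM in YFP+ cells with SGC0649, a log2 change of 2.54 ± 0.06 (SE). Slc16a3, the lactate exporter MCT4 (ENSMUSG00000025161, chromosome 11, 120948480 to 120960868), had 1.92, 1.62 and 2.61 CPM in naive, 202 and 196 CPM in YFP- and 321, 278 and 233 CPM in YFP+ cells with SGC0649. The naive libraries held 26 to 46 counts of it, and the log2 change in YFP+ cells was 7.07 ± 0.18 (SE). Slc16a1, the transporter MCT1 that carries lactate and pyruvate both ways, was higher by 2.40 ± 0.09 (SE). Ldhb, whose product favours lactate to pyruvate, was lower in YFP+ cells by -0.68 ± 0.12 (log2, SE). Pdk1 and Pdk3 encode kinases that switch off pyruvate dehydrogenase and so keep pyruvate from the mitochondrial cycle. Pdk1 (ENSMUSG00000006494, chromosome 2, 71873224 to 71903858) had 626, 591 and 619 CPM in naive, 202 and 214 CPM in YFP- and 124, 129 and 111 CPM in YFP+ cells with SGC0649. It fell in both sorts, by 2.34 in YFP+ and 1.56 in YFP- cells on the log2 scale. In other cell types Pdk1 is known as a HIF-1 target. Pdk3 had 17.7, 18.7 and 19.1 CPM in naive and 59.4, 58.1 and 61.5 CPM in YFP+ cells, and was higher by 1.69 ± 0.08 (SE).

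The hypoxia response was mixed. Hif1a itself had 146, 143 and 137 CPM in naive, 1801 and 1427 CPM in YFP- and 1543, 1455 and 1287 CPM in YFP+ cells with SGC0649, a 10.1-fold difference between YFP+ and naive cells. The cultured sorts overlapped. Its oxygen sensors were higher too, Egln1 by 0.74 ± 0.08 (SE) and Egln3 by 7.05 ± 0.19 (SE) in YFP+ cells. Egln3 (ENSMUSG00000035105, chromosome 12, 54178981 to 54203860), a HIF-1 target that feeds back on HIF-1, had 1.56, 1.87 and 1.64 CPM in naive cells and 205, 242 and 228 CPM in YFP+ cells with SGC0649. Of the 12 remaining hypoxia genes, 7 were higher and 2 lower in each sort. Those higher in both were Vegfa, the angiogenic factor, at 5.76 ± 0.17 (SE) in YFP+ cells, Bnip3, a mitophagy receptor, at 3.79 ± 0.16 (SE), Ndrg1, a stress-responsive gene, at 2.10 ± 0.12 (SE), Ero1l, an oxidase of the endoplasmic reticulum, at 1.95 ± 0.08 (SE), Higd1a, a mitochondrial protein, at 1.80 ± 0.11 (SE), Ankrd37 at 1.29 ± 0.18 (SE) and P4ha1, a collagen prolyl hydroxylase subunit, at 0.65 ± 0.07 (SE).

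Members of the same response that did not follow include the mitophagy receptor Bnip3l and the histone demethylase Kdm3a, both lower in YFP+ cells, by -0.65 ± 0.10 and -0.41 ± 0.06 (log2, SE). In YFP- cells the lower pair was P4ha2, a sister subunit of P4ha1, at -1.27 ± 0.34 (SE), and Ddit4, an inhibitor of mTORC1, at -0.76 ± 0.17 (SE). The P4ha2 call was lost without library 2 of the YFP- cells with SGC0649 (adjusted p = 0.051, edgeR quasi-likelihood). Mxi1, a Myc antagonist, was not called in either sort, with 25.9, 28.7 and 26.1 CPM in naive and 35.8, 33.2 and 26.2 CPM in YFP+ cells with SGC0649.

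**Figure D2:**
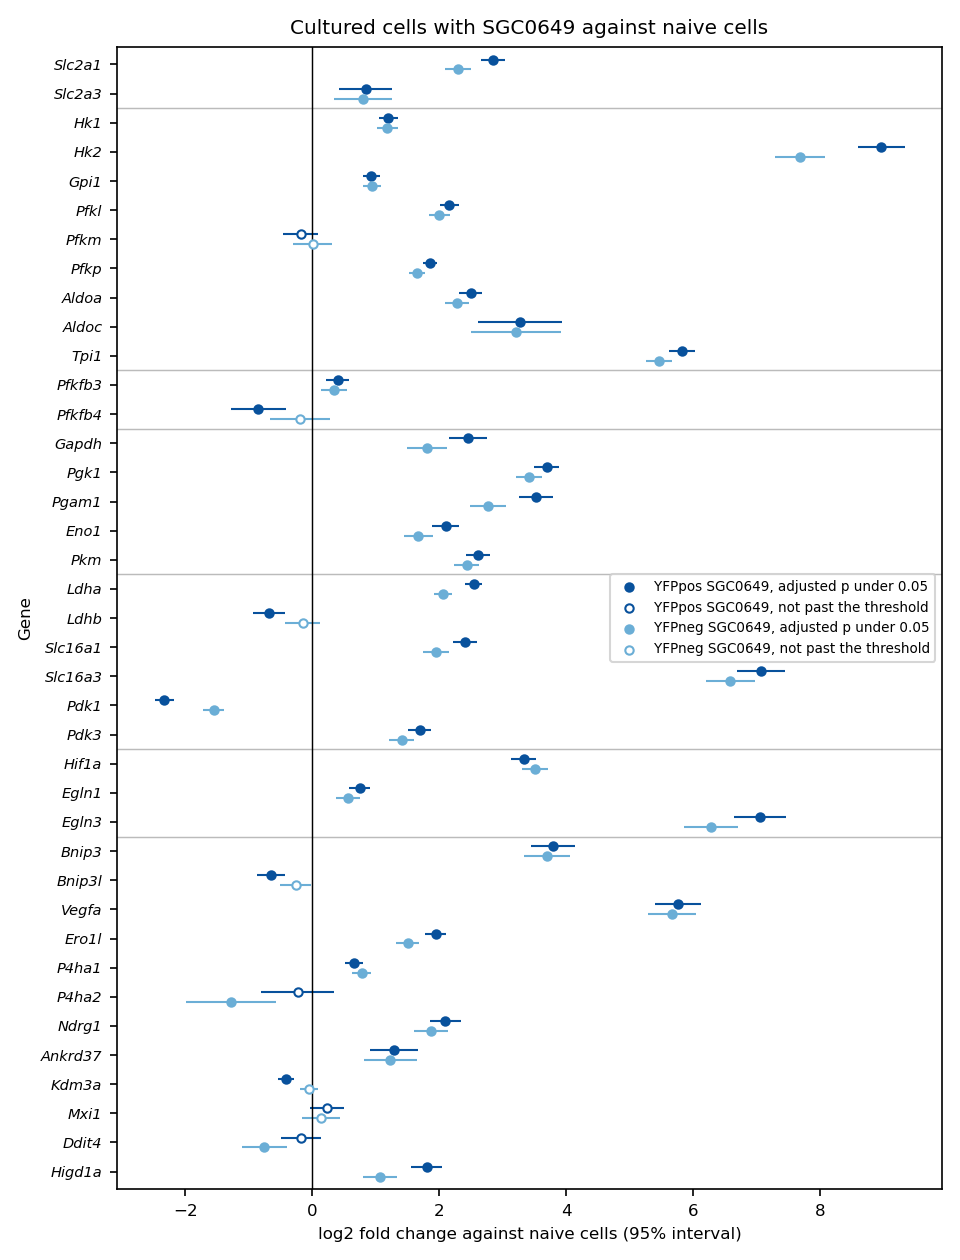
Log2 fold change of each gene in YFP+ (dark blue) and YFP- (light blue) cells with SGC0649 against naive cells, with 95% intervals and filled points for an adjusted p under 0.05. Hk2, Slc16a3, Egln3, Tpi1 and Vegfa lie farthest to the right, and Pdk1 lies farthest to the left at -2.34 and -1.56.

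The second comparison set cells that expressed the interferon-gamma reporter against cells from the same kind of culture that did not. Several enzymes, among them Hk2, Tpi1, Pgam1 and Ldha, and both lactate transporters were higher in YFP+ cells with either compound, while Pdk1 and Pfkfb4 were lower. With SGC0649, 17 of the 39 genes were higher and 5 lower in YFP+ cells, against 23.9% and 21.3% of all tested genes. With SGC0946, 21 were higher and 4 lower, against 26.9% and 27.8%. Of these, 15 genes were higher and 3 lower with both compounds, which have no library in common, and none went opposite ways. How many of all tested genes were called alike with both compounds was not computed. The median log2 fold change of the 39 genes was 0.18 and 0.24, beside 0.04 and 0.01 over all tested genes. Other measures moved with the sort: the summed level of 6 naive T cell markers was 1687 to 2204 CPM in YFP+ and 3026 to 3820 CPM in YFP- libraries, and unmapped reads differed as given above. The 2 CD8 T cell markers summed to 4.76 to 6.63 CPM in YFP+ and 6.503 to 19.7 CPM in YFP- libraries, and Eomes was lower in YFP+ cells with SGC0946, by -2.04 ± 0.24 (log2 ± SE). Their part in the result was not tested. Without library 2 of the YFP+ cells with SGC0946, whose unmapped share is like that of the YFP- libraries, 18 genes were higher and 6 lower. Taking same-numbered YFP+ and YFP- libraries of a compound as a block changed the counts. With SGC0649, 24 were then higher and 4 lower, beside 2736 and 2438 of all tested genes. There library 3 of the YFP+ cells had no same-numbered YFP- library, so it did not inform the difference. With SGC0946, 22 were higher and 6 lower, beside 3517 and 3478.

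Hk2 showed the widest gap of the glycolytic enzymes. With SGC0946 it had 149, 146 and 111 CPM in YFP- and 331, 316 and 315 CPM in YFP+ cells, a log2 difference of 1.24 ± 0.09 (SE), beside 1.27 ± 0.11 (SE) with SGC0649. The libraries did not overlap with either compound, and Hk2 was 2.42-fold and 2.37-fold higher in YFP+ cells. Hk1 was not called with either compound, at 0.02 ± 0.08 and 0.11 ± 0.07 (SE). Pgam1 followed at 0.76 ± 0.12 and 0.80 ± 0.10 (SE), with 54.9 and 50.4 CPM in YFP- and 86.96, 88.8 and 91.2 CPM in YFP+ cells with SGC0649. Slc2a1 differed by 0.56 ± 0.09 and 0.58 ± 0.08 (SE), whereas Slc2a3 was not called, at 0.04 ± 0.22 and 0.06 ± 0.19 (SE). Slc2a3 was called with SGC0649 when same-numbered libraries were taken as a block. Library 3 of the YFP+ cells has no same-numbered YFP- library and did not inform that difference. The lack of a call thus depends on the model and on the libraries it uses.

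Other enzymes differed by smaller amounts than Hk2. Ldha differed by 0.49 ± 0.07 and 0.57 ± 0.06 (SE), Gapdh by 0.64 ± 0.14 and 0.48 ± 0.13 (SE), Eno1 by 0.43 ± 0.11 and 0.59 ± 0.10 (SE) and Tpi1 by 0.37 ± 0.08 and 0.42 ± 0.07 (SE), with SGC0649 and SGC0946 in that order. Slc16a3 was higher by 0.48 ± 0.12 and 0.62 ± 0.11 (SE) and Slc16a1 by 0.45 ± 0.09 and 0.29 ± 0.08 (SE). Pdk1 was lower in YFP+ cells by -0.78 ± 0.08 and -0.81 ± 0.07 (SE), with 244, 263 and 274 CPM in YFP- and 148, 159.9 and 138 CPM in YFP+ cells with SGC0946, while Pdk3 was higher by 0.29 ± 0.09 and 0.29 ± 0.08 (SE). Pdk1 and Pdk3 thus went opposite ways between the sorts, as they did against naive cells. Pdk2, a further kinase of this kind outside the genes picked here, was lower in YFP+ cells. It differed by -1.39 ± 0.31 with SGC0649 and -0.98 ± 0.27 with SGC0946 (log2 ± SE), at 2.38 to 8.24 CPM in cultured libraries. With SGC0649 the calls of Pgk1, Eno1, Pdk3, Pfkp, Pfkfb4, Bnip3l and Ddit4 were each lost when some 1 of the 5 libraries was left out, and with SGC0946 those of Pgk1, Pfkfb4, Egln1 and Bnip3 when some 1 of 6 was.

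Among the hypoxia genes, Hif1a was not called in either sort comparison, at -0.18 ± 0.09 and -0.08 ± 0.08 (SE). Higd1a was higher in YFP+ cells, by 0.74 ± 0.12 and 0.89 ± 0.11 (SE), as were Ero1l, by 0.45 ± 0.08 and 0.56 ± 0.07 (SE), and Ddit4, by 0.58 ± 0.17 and 0.74 ± 0.15 (SE). P4ha2 had the largest sort difference with SGC0946, 1.65 ± 0.25 (SE), from 11.6, 13.2 and 5.51 CPM in YFP- to 31.8, 35.9 and 28.2 CPM in YFP+ cells, with no overlap. With SGC0649 it differed by 1.04 ± 0.33 (SE), a call that was lost without library 2 of the YFP- cells (adjusted p = 0.17, edgeR quasi-likelihood). Kdm3a was lower in YFP+ cells with both compounds, by -0.35 ± 0.07 and -0.47 ± 0.06 (SE), and Bnip3l with SGC0649, by -0.39 ± 0.11 (SE). P4ha1 was lower with SGC0946, by -0.34 ± 0.07 (SE), and was not called with SGC0649, at -0.12 ± 0.07 (SE).

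**Figure D3:**
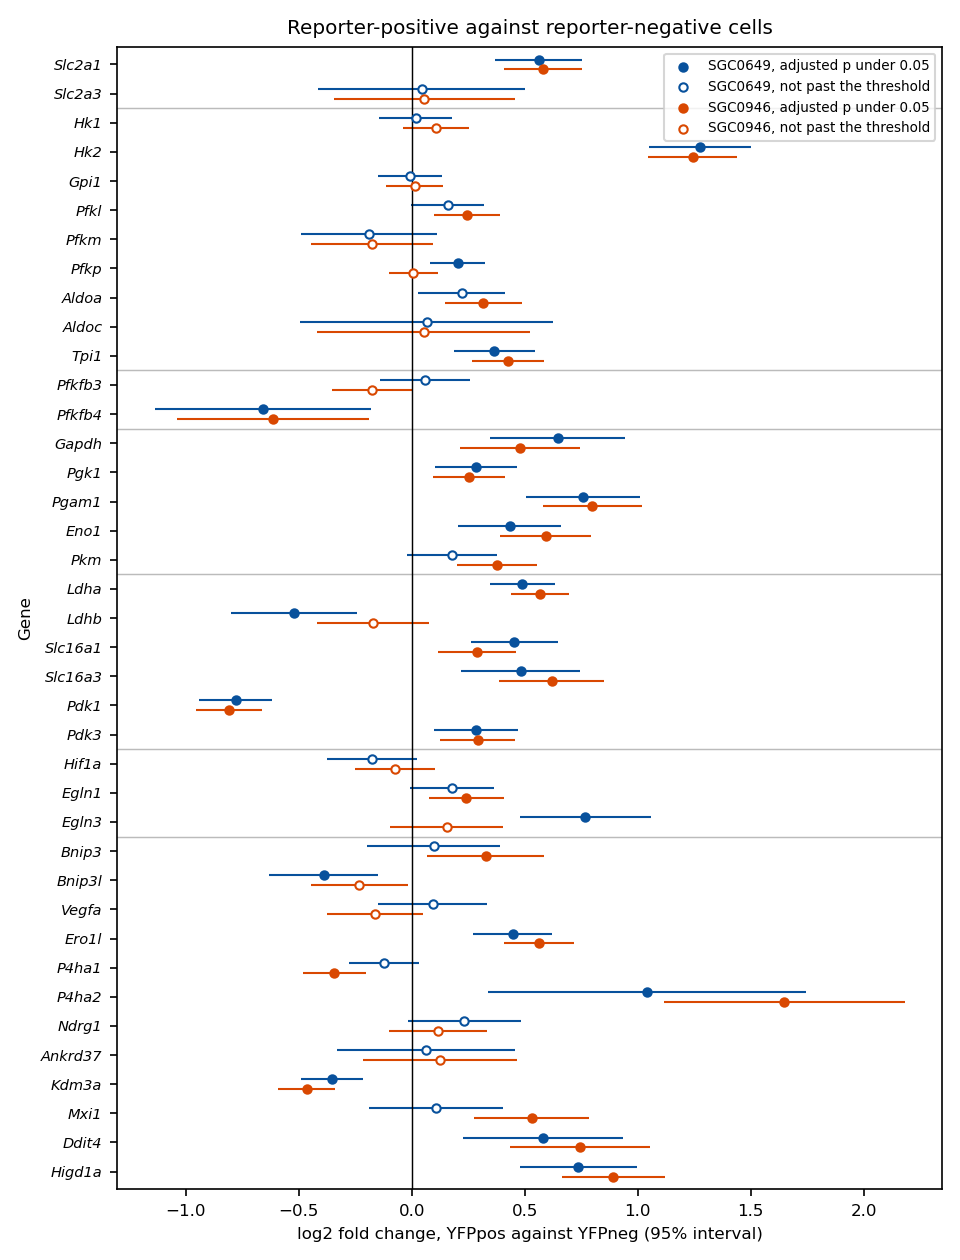
Log2 fold change of each gene in YFP+ against YFP- cells, with SGC0649 (blue) and SGC0946 (orange), with 95% intervals and filled points for an adjusted p under 0.05. Hk2 lies at 1.27 and 1.24, Pdk1 at -0.78 and -0.81, and P4ha2 has the widest intervals.

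The third comparison asked what inhibition of DOT1L did, with the inactive compound at the same dose and time as the control. Histone methylation itself was not measured in these libraries. With the inhibitor, most hypoxia genes and a majority of the glycolytic genes were higher, by modest amounts, in YFP+ cells, and the one gene that was lower was Slc16a1. In YFP+ cells 27 of the 39 genes were higher and 1 lower, against 12.1% and 15.7% of all tested genes. In YFP- cells 19 were higher and 1 lower, against 4.99% and 3.64%. The median log2 fold change was 0.33 in YFP+ and 0.28 in YFP- cells, beside -0.04 and 0.01 over all tested genes. Of the 15 hypoxia genes, 12 were higher in YFP+ and 10 in YFP- cells and none was lower. Of the other 24 genes, 15 and 9 were higher. In all, 16 genes were higher in both sorts, 11 in YFP+ cells alone and 3 in YFP- cells alone by the threshold, which does not test the difference. A like count over all tested genes was not made.

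The number called in YFP- cells depended on single libraries. It was 3 without library 2 of the YFP- cells with SGC0649, 30 without library 3 of the YFP- cells with SGC0946, and 14 to 17 without any of the other 3 libraries. The genes called under every alternative in YFP- cells were Egln3, Vegfa and Ndrg1, 3 of the 20. Where a library of the control group is left out, 1 control library remains and is assumed to vary like the other groups. In YFP+ cells the count stayed between 22 and 26 when any 1 of the 6 libraries was left out, and was 22 without library 2 of the YFP+ cells with SGC0946. The summed level of 2 CD8 T cell markers was 12.2 to 19.7 CPM in YFP- cells with SGC0946 and 6.503 to 9.51 CPM in YFP- cells with SGC0649.

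Other marker levels moved with the inhibitor as well. Eomes had 75.6, 112 and 165 CPM in YFP+ cells with SGC0649 and 18.8, 19.6 and 25.4 CPM with SGC0946, a difference of -2.46 ± 0.24 (log2 ± SE). In YFP- cells it had 128 and 159 CPM with SGC0649 and 66.2, 80.1 and 118 CPM with SGC0946, not called at -0.71 ± 0.25 (log2 ± SE). The other 4 NK cell genes together reached at most 0.391 CPM in any cultured library, so the NK list moved through Eomes. The summed B cell markers were 1.08 to 1.38 CPM in YFP+ cells with SGC0649 and 2.78 to 3.20 CPM with SGC0946, and the summed myeloid markers 0.562 to 1.996 and 5.34 to 6.76 CPM. In YFP- cells the myeloid markers were 0.411 to 2.29 and 2.09 to 6.20 CPM, and the naive T cell markers 3026 to 3413 and 3566 to 3820 CPM, with SGC0649 and SGC0946 in that order. The part of these markers in the inhibitor results was not tested.

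P4ha2 (ENSMUSG00000018906, chromosome 11, 54100095 to 54131665) rose most. It had 8.11, 7.36 and 4.59 CPM in YFP+ cells with SGC0649 and 31.8, 35.9 and 28.2 CPM in YFP+ cells with SGC0946, a 4.78-fold difference (log2 2.26 ± 0.26 SE, adjusted p = 1.5e-05, edgeR quasi-likelihood). In YFP- cells it had 3.91 and 2.57 CPM with SGC0649 and 11.6, 13.2 and 5.51 CPM with SGC0946, a log2 difference of 1.65 ± 0.33 (SE). The groups did not overlap in either sort, although P4ha2 remained among the least expressed of the 39 genes per length. P4ha1 was not called in YFP+ cells, at 0.07 ± 0.07 (SE), and was higher in YFP- cells by 0.29 ± 0.07 (SE).

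A further 3 genes changed by over 1 on the log2 scale in YFP+ cells. Aldoc rose by 1.20 ± 0.23 in YFP+ and 1.21 ± 0.27 in YFP- cells (SE), from 23.4, 19.98 and 10.9 CPM to 36.2, 53.4 and 35.1 CPM in YFP+ cells. Slc2a3 rose by 1.18 ± 0.19 and 1.17 ± 0.22 (SE), from 196, 154 and 98.6 CPM to 313, 425 and 276 CPM in YFP+ and from 162 and 128 CPM to 321, 375 and 279 CPM in YFP- cells. Neither had been called between the sorts. Their partners Slc2a1 and Aldoa rose by 0.35 ± 0.08 and 0.37 ± 0.08 (SE) in YFP+ cells. Mxi1 rose by 1.09 ± 0.12 in YFP+ and 0.67 ± 0.14 in YFP- cells (SE), from 35.8, 33.2 and 26.2 CPM to 63.8, 75.7 and 63.04 CPM in YFP+ cells. It had not been called against naive cells in either sort.

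The lactate transporters moved in opposite directions. Slc16a3 had 321, 278 and 233 CPM in YFP+ cells with SGC0649 and 416, 479.8 and 430.2 CPM with SGC0946, a rise of 0.67 ± 0.11 (log2, SE), and 0.53 ± 0.13 (SE) in YFP- cells. Slc16a1 (ENSMUSG00000032902, chromosome 3, 104638668 to 104658462) had 139.6, 151 and 171 CPM in YFP+ cells with SGC0649 and 115, 103 and 114 CPM with SGC0946. It fell by 0.48 on the log2 scale in YFP+ cells, with adjusted p = 0.00047 (edgeR quasi-likelihood), and this call held under each of the 13 alternatives tried. In YFP- cells it fell by 0.31, with adjusted p = 0.045 (edgeR quasi-likelihood), and there the call was lost in 6 of 12 alternatives, where the adjusted p reached 0.25. Pdk1 rose by 0.29 ± 0.07 and 0.32 ± 0.08 (SE), and Ldhb in YFP+ cells by 0.44 ± 0.12 (SE). Pdk3 was not called, at -0.05 ± 0.08 and -0.06 ± 0.09 (SE).

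Core enzymes changed less or not at all by the test. Pkm rose by 0.41 ± 0.08 (SE) in YFP+ cells and was not called in YFP- cells, at 0.22 ± 0.09 (SE). Pgk1 rose by 0.33 ± 0.08 and 0.36 ± 0.09 (SE), Hk1 by 0.38 ± 0.07 and 0.29 ± 0.08 (SE) and Gpi1 by 0.30 ± 0.06 and 0.28 ± 0.07 (SE), in YFP+ and YFP- cells in that order. Gapdh was not called in either sort, at 0.01 ± 0.12 and 0.17 ± 0.14 (SE). Hk2, the gene with the largest change on culture, missed the threshold in YFP+ cells, at 0.25 ± 0.09 (SE) with adjusted p = 0.050 (edgeR quasi-likelihood), although its libraries did not overlap, at 278, 262 and 270.5 CPM with SGC0649 and 331, 316 and 315 CPM with SGC0946. It was called in 7 of the 13 alternatives, with adjusted p from 0.0017 to 0.15. The smallest change called in YFP+ cells was that of Ldha, 0.17 ± 0.06 (SE), which was lost when any 1 of the 6 libraries was left out.

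Of the 15 hypoxia genes, 12 were called higher in YFP+ and 10 in YFP- cells, and pairs of values follow that order. In YFP- cells only the calls of Egln3, Vegfa and Ndrg1 held under every alternative. Bnip3 rose by 0.89 ± 0.12 and 0.66 ± 0.14 (SE), from 65.5, 64.1 and 49.2 CPM to 106, 128 and 96.7 CPM in YFP+ cells, with no overlap. Ndrg1 rose by 0.73 ± 0.10 and 0.85 ± 0.12 (SE), from 67.6 and 68.7 CPM to 115, 139.6 and 113 CPM in YFP- cells. Bnip3l, which was lower in YFP+ than in naive cells, rose by 0.62 ± 0.10 and 0.46 ± 0.12 (SE). Vegfa rose by 0.39 ± 0.10 and 0.65 ± 0.12 (SE), and its call in YFP+ cells was lost without library 2 of the YFP+ cells with SGC0946 (adjusted p = 0.053, edgeR quasi-likelihood). Ero1l and Egln1 rose in both sorts, by 0.41 ± 0.07 and 0.36 ± 0.08 (SE) in YFP+ cells. Hif1a rose in YFP+ cells, by 0.36 ± 0.08 (SE), from 1543, 1455 and 1287 CPM to 1819, 1890.1 and 1787 CPM, and was not called in YFP- cells, at 0.26 ± 0.09 (SE). Ddit4, Ankrd37 and Higd1a were called in YFP+ cells and not in YFP- cells, with YFP+ values of 0.64 ± 0.15, 0.61 ± 0.16 and 0.32 ± 0.10 (SE). Kdm3a was called in neither, at -0.01 ± 0.06 and 0.10 ± 0.07 (SE).

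**Figure D4:**
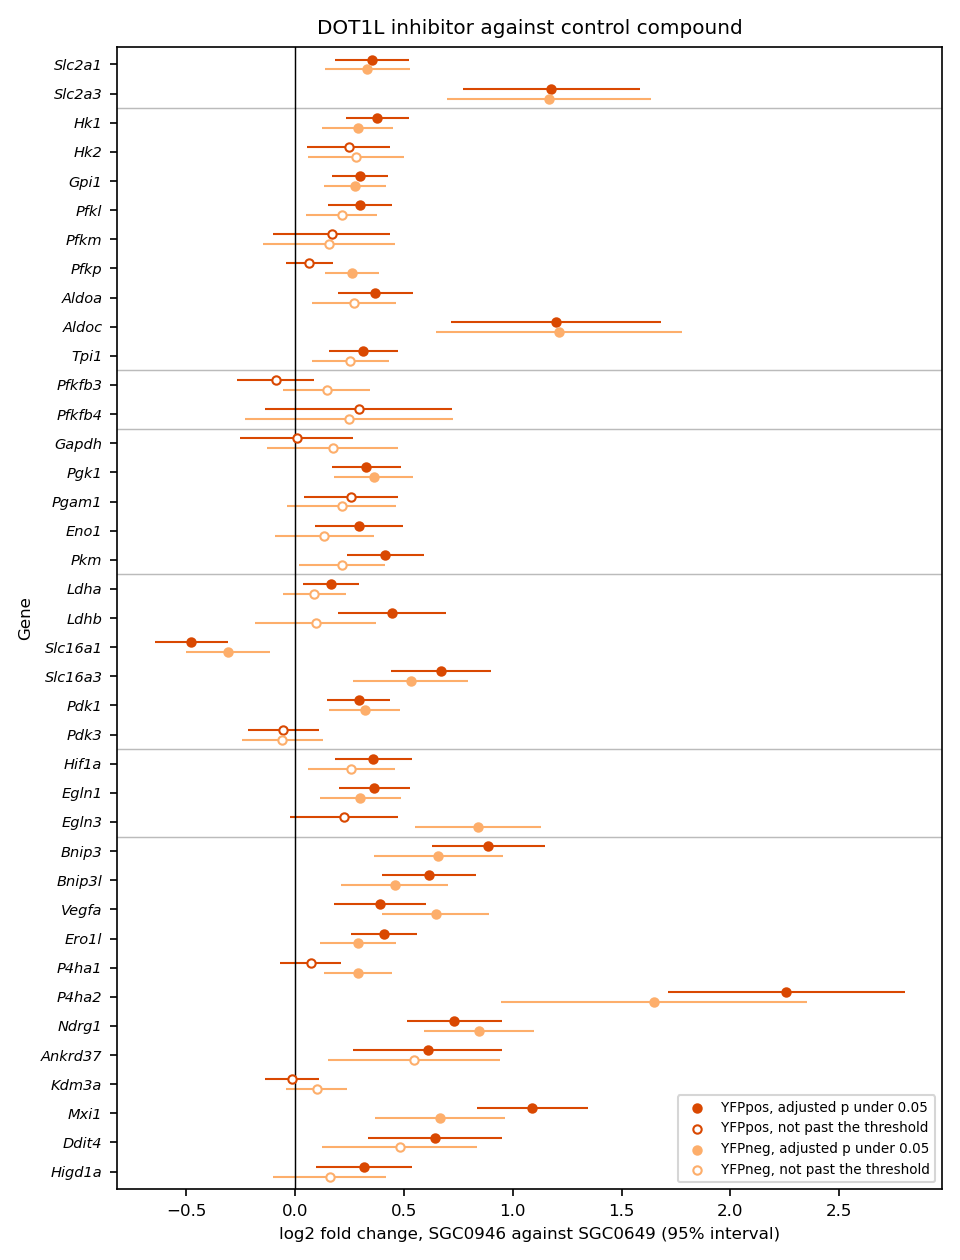
Log2 fold change of each gene with SGC0946 against SGC0649, in YFP+ (dark orange) and YFP- (light orange) cells, with 95% intervals and filled points for an adjusted p under 0.05. Most points lie between 0 and 1, P4ha2 lies at 2.26 and 1.65, and Slc16a1 is the only filled point left of 0.

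Whether the inhibitor acted differently in the 2 sorts was tested with an interaction term. None of the 39 genes passed the threshold by edgeR's quasi-likelihood test, where 0.259% of all tested genes had a positive and 0.891% a negative interaction, and 4 of the 39 had an unadjusted p under 0.05. DESeq2 and limma-voom also called 0 of the 39. Egln3 had the interaction of largest size, -0.61 ± 0.18 (log2, SE), with adjusted p = 0.12. It rose with the inhibitor by 0.84 ± 0.14 (SE) in YFP- cells, from 126 and 138 CPM to 213, 289 and 207 CPM, and by 0.23 ± 0.12 (SE), not called, in YFP+ cells, from 205, 242 and 228 CPM to 224, 311 and 254 CPM. The YFP+ groups overlapped and the YFP- groups did not. Its sort difference was 0.77 ± 0.14 (SE) with SGC0649 and 0.15 ± 0.12 (SE), not called, with SGC0946. Its interaction passed the threshold without library 2 of the YFP+ cells with SGC0946. For Slc2a3 the interaction was 0.01 ± 0.29 (SE), with a 95% interval from -0.59 to 0.62. For P4ha2 it was 0.61 ± 0.42 (SE), with an interval from -0.28 to 1.49. Differences between the sorts of any size inside these intervals remain compatible with these libraries.

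**Figure D5:**
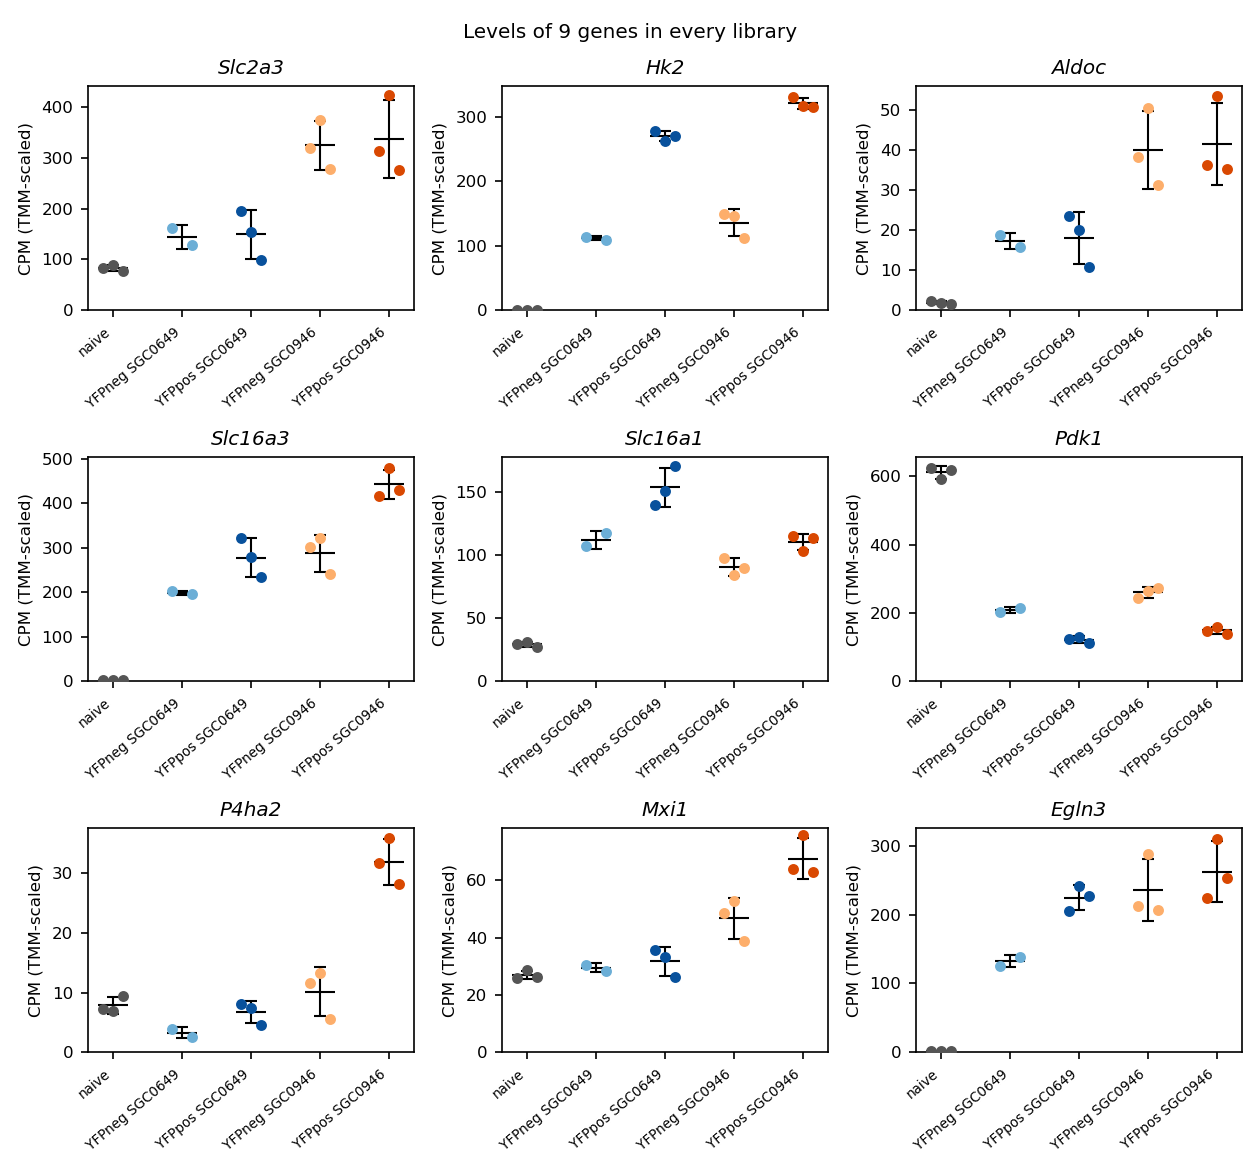
Level in CPM of 9 genes in every library (points), with the mean and SD of each group (line and bars), on linear axes that start at 0. Hk2 and Slc16a3 are near 0 in naive cells, Pdk1 is highest there, Slc16a1 is the only panel in which the inhibitor groups lie below the control groups, and P4ha2 stands out in YFP+ cells with SGC0946.

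The balance between paralogs was followed as a share of their summed level per kilobase of exon. That length joins all annotated exons and exceeds the longest transcript unevenly. It is 8532 against 4278 bases for Hk1, 5969 against 5513 for Hk2 and 6239 against 2263 for P4ha2. The size of a share therefore depends on the length used, while the order of libraries within a pair of genes does not. Hk2 made up 0.438 ± 0.220% of the summed Hk1 and Hk2 level in naive cells, 28.9 ± 0.421% in YFP- and 49.4 ± 2.07% in YFP+ cells with SGC0649 (mean ± SD). With SGC0946 it made up 28.7 ± 2.75% in YFP- and 47.1 ± 2.20% in YFP+ cells. The share was higher in every YFP+ library than in any YFP- library with the same compound. Slc2a3 made up 52.6 ± 1.64% of the summed Slc2a1 and Slc2a3 level in naive cells. In cultures with SGC0649 it was 28.3 ± 3.11% in YFP- and 21.3 ± 4.19% in YFP+ cells, and with SGC0946 it was 41.3 ± 0.833% and 32.7 ± 3.52%. Its share was thus lower after culture and, in each sort, higher with the inhibitor than with the control, with no overlap between compounds.

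Slc16a3 made up 5.58 ± 1.66% of the summed Slc16a1 and Slc16a3 level in naive cells and 59.6 ± 2.13% and 59.8 ± 6.28% in YFP- and YFP+ cells with SGC0649. With SGC0946 the shares were 72.3 ± 3.50% and 76.8 ± 2.36%, above those with SGC0649 in every library of the same sort. Pdk3 made up 8.41 ± 0.447% of the summed Pdk1 and Pdk3 level in naive cells, 41.6 ± 3.25% in YFP- and 59.9 ± 2.60% in YFP+ cells with SGC0649, and 35.4 ± 3.23% and 54.1 ± 0.896% with SGC0946. The order here was naive, YFP- and YFP+ with either compound. Pdk2 was not part of this sum. Ldhb made up 8.65 ± 0.361% of the lactate dehydrogenase level in naive cells and at most 2.19% in any cultured library. P4ha2 made up 2.66 ± 0.659% of the summed P4ha1 and P4ha2 level in YFP+ cells with SGC0649 and 11.1 ± 0.779% with SGC0946. These shares are descriptions, with no test of their own.

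Neighbouring pathways were read from lists of other genes. The pentose phosphate pathway, which branches from glucose 6-phosphate to make NADPH and ribose, had 7 tested genes. Of these, 6 (85.7%, against 42.6% of all tested genes in YFP+ and 36.4% in YFP- cells) were higher than in naive cells in each sort and none was lower, with Tkt, a transketolase, at 1.97 ± 0.06 and 1.56 ± 0.07 (log2 ± SE) in YFP+ and YFP- cells. In YFP+ against YFP- cells 3 (42.9%, against 23.9% of all tested genes) were higher with SGC0649 and 5 (71.4%, against 26.9%) with SGC0946. Pgd led, at 0.64 ± 0.06 and 0.52 ± 0.05 (log2 ± SE). With the inhibitor none was higher in YFP+ or YFP- cells, where 12.1% and 4.99% of all tested genes were. In YFP+ cells 1 gene, Rpia, was lower (14.3%, near the 15.7% of all tested genes). That call was lost without library 2 or 3 of the YFP+ cells with SGC0649 or library 2 of those with SGC0946. The adjusted p was then 0.07, 0.081 and 0.078 (edgeR quasi-likelihood). Of 11 tested genes for pyruvate dehydrogenase, its regulators and pyruvate carriage, 4 (36.4%, against 15.7% of all tested genes) were lower and none higher with the inhibitor in YFP+ cells, including Mpc2, a subunit of the mitochondrial pyruvate carrier, at -0.33 ± 0.09 (log2 ± SE). That count was 0 without library 3 of the YFP+ cells with SGC0649 or library 2 of those with SGC0946, 1 without library 2 of the former, 2 without library 1 of the latter, 1 with DESeq2 size factors and 2 with no filter on low counts. The Mpc2 call was among those lost without the first pair (adjusted p = 0.072 and 0.064, edgeR quasi-likelihood). Against naive cells 5 (45.5%) were higher and 3 (27.3%) lower in YFP+ cells, beside 42.6% and 37.3% of all tested genes, and Pcx, the pyruvate carboxylase, was higher by 3.10 ± 0.18 (log2 ± SE).

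Of 14 other tested glycolysis genes, 6 (42.9%) were higher and 4 (28.6%) lower in YFP+ than in naive cells, where 42.6% and 37.3% of all tested genes were, so the share of higher genes was that of the background. Pgm2, a phosphoglucomutase, was higher by 1.51 ± 0.10 in YFP+ and 1.42 ± 0.11 in YFP- cells (log2 ± SE). With the inhibitor 2 (14.3%) were higher and 3 (21.4%) lower in YFP+ cells, beside 12.1% and 15.7% of all tested genes, and the 2 became 5 when only the groups compared were fitted. Those lower included Eno3, an enolase, at -1.05 ± 0.12, and Adpgk, an ADP-dependent glucokinase, at -0.50 ± 0.09 (log2 ± SE). Of 27 other tested hypoxia genes, 17 (63%) were higher and 10 (37%) lower in YFP+ than in naive cells, led by Bhlhe40, a transcription factor, at 9.20 ± 0.18 (log2 ± SE). With the inhibitor 10 (37%, against 12.1% of all tested genes) were higher and 1 lower in YFP+ cells, and 6 (22.2%, against 4.99%) higher and none lower in YFP- cells. In YFP+ cells the 10 became 5 without library 2 of the cells with SGC0946, 6 without library 2 or 3 of those with SGC0649, and 16 when only the groups compared were fitted, and the 1 became 0 without library 2 of the cells with SGC0946 or library 3 of those with SGC0649 and 2 with only the groups compared. In YFP- cells the 6 became 2 and 1 without library 1 and 2 of the cells with SGC0649, 3 and 10 without library 2 and 3 of those with SGC0946, and 1 with only the groups compared. Epas1, which encodes the HIF-2 alpha subunit, had 27.4 to 31 CPM in naive cells and stayed under 7 CPM in every cultured library. With the inhibitor it rose from 1.08, 0.765 and 0.735 to 3.16, 3.97 and 2.76 CPM in YFP+ cells, by 1.92 ± 0.29 (log2 ± SE), and from 1.17 and 2.77 to 4.91, 6.80 and 4.95 CPM in YFP- cells, by 1.49 ± 0.30 (log2 ± SE). The call in YFP- cells was lost without library 1 of the cells with SGC0649 (adjusted p = 0.054, edgeR quasi-likelihood) and when only the groups compared were fitted (adjusted p = 0.18).

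Of 17 regulators around Myc, mTORC1 and AMPK, 5 (29.4%) were higher and 8 (47.1%) lower in YFP+ than in naive cells, beside 42.6% and 37.3% of all tested genes. In YFP- cells 6 (35.3%) were higher and 7 (41.2%) lower, beside 36.4% and 32.6%. Myc, which drives glycolytic genes in activated T cells, was higher by 1.92 ± 0.07 in YFP+ and 1.90 ± 0.07 in YFP- cells (log2 ± SE). With the inhibitor Myc was lower, by -0.35 ± 0.06 and -0.32 ± 0.07 (log2 ± SE) in YFP+ and YFP- cells. In YFP+ cells 5 (29.4%) of the 17 regulators were higher and 6 (35.3%) lower, beside 12.1% and 15.7% of all tested genes. Among the 5 was Mycn, higher by 2.82 ± 0.38 (log2 ± SE), a call that held under each of 13 alternatives. The Myc call in YFP- cells was lost without library 2 of the cells with SGC0649 (adjusted p = 0.099, edgeR quasi-likelihood) and when only the groups compared were fitted (adjusted p = 0.081), and that in YFP+ cells held under each of 13 alternatives. Txnip, which restrains glucose uptake, was lower in YFP+ than in YFP- cells, by -1.25 ± 0.14 with SGC0649 and -1.003 ± 0.13 with SGC0946 (log2 ± SE).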

How the data were processed

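RNA-seq libraries of 14 samples were compared. The authors deposited whole-number read counts per gene on the reverse strand, limited to protein-coding genes per the file names, and a summary of assigned and unassigned reads per library. The submitters' processing notes name featureCounts, edgeR and limma without versions, and the build GRCm38; no aligner and no annotation release is named there. From these deposited counts, edgeR 4.0.16 (R 4.3.3) was run with filterByExpr by group, TMM factors, 1 coefficient for each of the 5 groups over all 14 libraries, and quasi-likelihood F tests with Benjamini-Hochberg adjustment over 12343 genes, at an adjusted p under 0.05. Fold changes are log2 and standard errors come from the fold change over the root of its F value. The spread was shared over all groups, including the group of 2 libraries, and fits of only the groups compared are an alternative. Levels per length divide CPM by the exon length of GENCODE M21. The 39 genes and the other lists were chosen with earlier results of these data known. The genes named are all members by role, the 8 largest called changes in each direction of each comparison, and up to 3 called genes by smallest p of each other list. The script was tested on simulated data. The alternatives were DESeq2 size factors, library totals alone, no low-count filter, the DESeq2 1.42.0 Wald test, limma-voom 3.58.1, only the groups compared, a replicate block, and leaving out each library. No 2 replicates agreed within sampling noise. Total counts of 14486577 to 31614057 per library set the counting precision.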

Additional observations from a re-analysis of the deposited data

Results flagged for a closer look

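Cited2, a HIF-1 target whose product restrains HIF-1, is not among the 39 genes but stands in the list of other hypoxia genes, and its response to the inhibitor differed between the sorts. The rise in YFP+ cells exceeded that in YFP- cells by 0.93 ± 0.21 (log2 ± SE, interaction term, adjusted p = 0.041, edgeR quasi-likelihood). It had 29.5, 25.8 and 19.3 CPM in YFP+ cells with SGC0649 and 65.6, 75.0 and 59.3 CPM with SGC0946, with no overlap. In YFP- cells it had 28.3 and 27.9 CPM with SGC0649 and 33.4, 47.7 and 37.4 CPM with SGC0946. The interaction lost its call in 9 of 18 alternatives, over which the adjusted p ran from 0.0025 to 0.13.

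For 3 marker genes, which are not among the 39, the response to the inhibitor also differed between the sorts by the interaction term, and they are named here after their values were seen. That of Ccr7, a lymph node homing receptor, was -0.75 ± 0.10 (log2 ± SE, adjusted p = 0.00086, edgeR quasi-likelihood), and Ccr7 was lower with the inhibitor in YFP+ cells, by -0.69 ± 0.06, and not called in YFP- cells, at 0.06 ± 0.07. That of Tcf7, a transcription factor of naive T cells, was -0.92 ± 0.10 (log2 ± SE, adjusted p = 0.00075, edgeR quasi-likelihood), and Tcf7 was lower in YFP+ cells, by -0.78 ± 0.07, and not called in YFP- cells, at 0.14 ± 0.07. Both calls held under each of 18 alternatives. That of Eomes was -1.75 ± 0.35 (log2 ± SE, adjusted p = 0.02, edgeR quasi-likelihood), and it was lost in 5 of 18 alternatives, over which the adjusted p ran from 5.5e-05 to 0.11. Without 1 library it was lost for library 1 or 2 of the YFP- cells with SGC0649 and library 1 or 2 of the YFP+ cells with SGC0946.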

How the results depend on the processing

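No member changed direction past the threshold under any alternative. Called members kept their call under every alternative in 35 of 35 cases for YFP+ against naive cells, 31 of 33 for YFP- against naive cells, 14 of 22 and 21 of 25 for the sorts with SGC0649 and SGC0946, 23 of 28 for the inhibitor in YFP+ cells and 3 of 20 in YFP- cells. The count of members higher with the inhibitor in YFP- cells, 19, became 9 when only the groups compared were fitted, and ran from 3 to 30 when 1 library was left out. The count lower there, 1, became 0 with limma-voom and 0 with only the groups compared, and ran from 0 to 1 without 1 library. For the interaction, the count of lower members, 0, became 1 with a replicate block and ran from 0 to 1 without 1 library, in both cases Egln3. Over all tested genes, those higher with the inhibitor in YFP- cells, 616, ran from 161 to 916 and those lower, 449, from 38 to 703. In YFP+ cells the 1490 higher ran from 867 to 2584 and the 1934 lower from 1019 to 2273. Interaction counts of 32 and 110 ran from 10 to 121 and from 40 to 180. The cause was not tested, except that the smaller fits leave fewer libraries. Same-numbered YFP+ and YFP- libraries were correlated in their deviations from the group means. The values were 0.27 and 0.083 with SGC0649 and 0.143, 0.148 and 0.005 with SGC0946. Differently numbered libraries ran from -0.27 to 0.209 with SGC0649 and from -0.195 to 0.041 with SGC0946. With only 2 YFP- libraries with SGC0649, their deviations mirror each other. The values there come in pairs of opposite sign and are not independent. These correlations do not settle whether a number marks 1 culture, and no label says so. For the sort comparisons and the interaction, the replicate block joined same-numbered YFP+ and YFP- libraries of a compound. Library 3 of the YFP+ cells with SGC0649 had no such partner, so it did not inform the difference between the sorts there. For the other comparisons it was the replicate index within each group, naive cells included. With these blocks, members higher and lower were 31 and 5, 30 and 4, 24 and 4, 22 and 6, 30 and 1, 25 and 1, and 0 and 1, in the order of the comparisons above. The block of same-numbered libraries also called Slc2a3 between the sorts with SGC0649 (adjusted p = 0.009, edgeR quasi-likelihood), which was not called otherwise. Low counts limit Hk2 in naive cells.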
